A study of Mus musculus with 4 samples.

Results

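The genes described here are 42 genes of mitosis, chosen by symbol among the 24346 gene symbols listed in each library. They are mitotic cyclins and kinases, genes of the spindle checkpoint, the anaphase-promoting complex, the kinetochore, the spindle and cytokinesis, and a few genes of mitotic chromosomes. All 42 symbols were found, and all 42 were among the 11018 genes that were tested. RNA was sequenced from cultured mouse hair follicle stem cells (HFSCs) of the C3H/HeN strain after 10 passages (10p-HFSCs, 2 libraries) and after 48 passages (48p-HFSCs, 2 libraries). Per the study's methods, the cells were sorted from the dorsal skin of adult mice by the surface proteins CD49f and CD34 and were kept in the serum-free medium M-CnT, and the labels name no treatment in either group. The labels do not say whether libraries with the same passage number came from separate cultures, so p-values measure only the spread between these libraries, which may be technical.

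Mitosis begins when the kinase Cdk1, bound to B-type cyclins, is switched on by Cdc25 phosphatases. Chromosomes then attach to spindle microtubules through the kinetochore, a protein layer on the centromere, and the spindle checkpoint holds the cell until every kinetochore is attached. The anaphase-promoting complex next marks cyclins and securin for destruction, the sister chromatids part, and the cell divides. Many of these genes are transcribed mainly in late S, G2 and M phase, so in a bulk sample their RNA depends both on how many cells are in these phases and on how much RNA each such cell holds, which cannot be told apart here.

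Levels are FPKM as deposited, fragment counts scaled to transcript length and to library size. The paper defines FPKM by the mapped total, but the processing notes name another program, so the library scaling used is uncertain. Summed over all genes, FPKM came to 581516 and 719012 in the 10p-HFSC libraries, and to 666018 and 1414950 in replicates 1 and 2 at 48 passages. The median over the tested genes differed far less, at 12.17 and 11.74 FPKM at 10 passages and 11.66 and 11.20 FPKM at 48. Relative depth was read from the steps between low values, which follow depth only if FPKM was divided by the mapped total. Read this way, replicate 2 of 48p-HFSCs came out lowest, at 46.7% of replicate 1 of 10p-HFSCs. Replicate 2 of 10p-HFSCs came out at 71.6% and replicate 1 of 48p-HFSCs at 82.9%. Replicate 2 of 48p-HFSCs thus stood apart in its sum and its steps. The genes described in full are therefore given with and without it and after rescaling every library to the same sum (labelled TPM). Of the 10 markers of basal keratinocytes and HFSCs, 8 were tested, and of these Itga6 was called higher in 48p-HFSCs and Sox9 lower. The summed FPKM of the 10 was 3905 and 3210 at 10 passages, against 12901 and 7978 at 48, most of it from Krt5 and Krt14, which were not called, and Krt15 was at 424.8 FPKM in replicate 1 and 18.8 FPKM in replicate 2 at 48 passages. Cd34, which defines HFSCs on sorting, was at most 0.234 FPKM and Lhx2 at most 0.0241 FPKM in any library. The paper, by contrast, reports that antibodies found CD34 protein on most cells at both passages. By qRT-PCR it reports Cd34 RNA as maintained and Lhx2 and Sox9 RNA as increased in 48p-HFSCs. The cause of this disagreement was not tested. Summed over 8 fibroblast markers, FPKM was 68.9 and 60.2 at 10 passages, against 0.185 and 0.242 at 48, nearly all of it from Col1a2, while Dcn, Lum and Thy1 were listed at 0 in every library. The sums over 7 melanocyte, 6 leukocyte and 4 endothelial markers lay between 0.292 and 11.9 FPKM in every library, with Dct, Sox10, Cd3e and Tyrobp listed at 0 throughout, and the part of these cells in the mitotic values was not tested.

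The mitosis genes were well expressed at both passages. The median of the 42 genes was 38.6 FPKM in replicate 1 and 28.8 FPKM in replicate 2 at 10 passages, and 28.1 and 39.2 FPKM at 48. The groups overlapped in this median. The highest gene was Ube2c, the ubiquitin-conjugating enzyme of the anaphase-promoting complex, in 3 libraries, and Pttg1, which encodes securin, in replicate 1 of 48p-HFSCs. The lowest gene was the separase gene Espl1 in both 10p-HFSC libraries, at 4.86 and 3.01 FPKM, and the kinetochore gene Cenpf in both 48p-HFSC libraries.

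**Figure D1:**
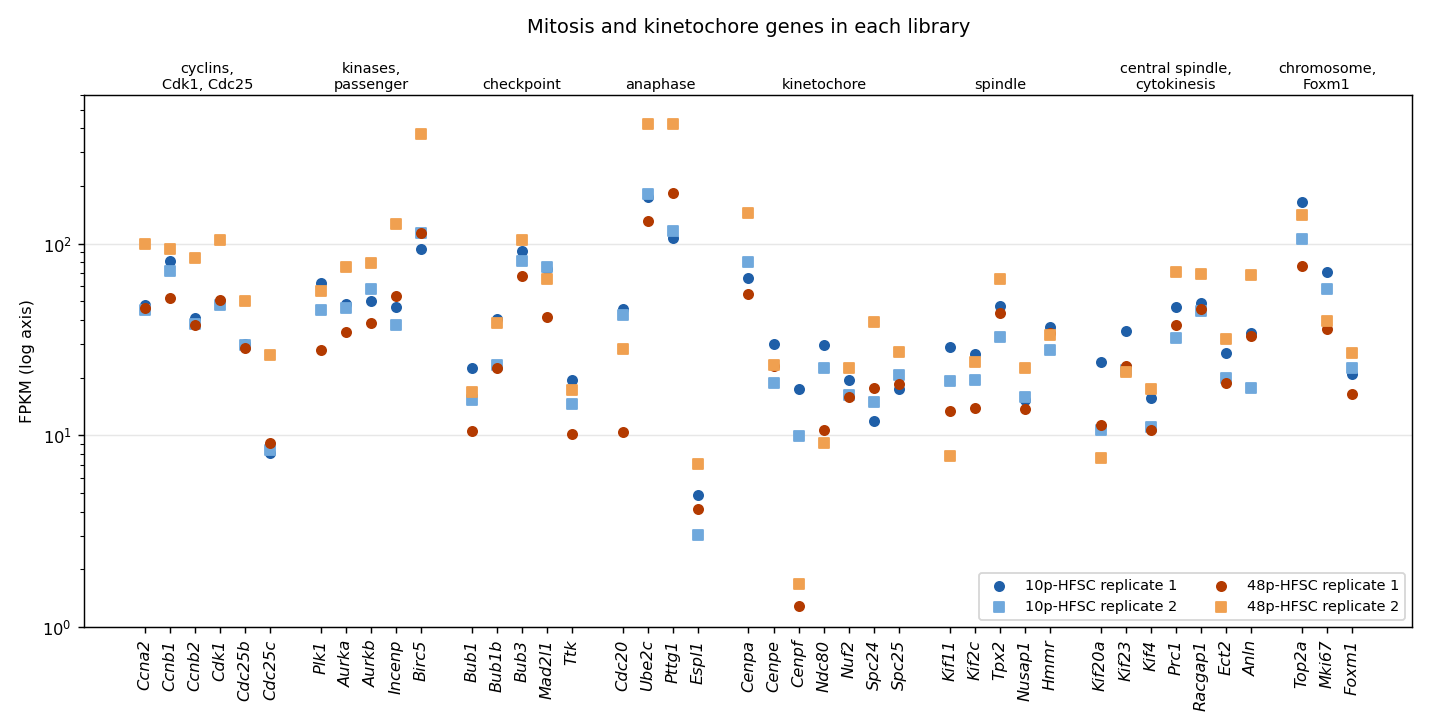
FPKM (log axis) of each of the 42 genes, ordered by role, with 1 point for each of the 2 libraries of 10p-HFSCs (blue) and of 48p-HFSCs (orange and brown). Cenpf and Ndc80 have both 48p-HFSC points well below both 10p-HFSC points, Pttg1 has both above, and for most genes the lighter 48p-HFSC square (replicate 2) lies above the darker circle (replicate 1).

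Between the passages, 2 of the 42 genes were called lower in 48p-HFSCs, Cenpf and Ndc80, both of the outer kinetochore, and none was called higher. A gene was called when its limma adjusted p-value was under 0.05 and its mean log2(FPKM + 1) differed by at least 1. Over all 11018 genes tested, 9.15% were called lower and 10.8% higher, so that 2 of 42 (4.76%) lower and 0 of 42 higher were both fewer than the share over all genes. At an unadjusted limma p under 0.05 there were 6 of the 42 genes and 4118 of all genes. After rescaling to TPM, 7.44% of all genes were called lower and 5.63% higher, and again 2 of the 42 genes were called lower and 0 higher, but these were Cenpf and Cdc20. On the log2(FPKM + 1) scale the median difference over the 42 genes was 0.08, beside -0.03 over all genes, and 37 of the 42 differed by less than 1 in either direction. Rescaling moved the median over all genes to -0.55 and that over the 42 genes to -0.49. Of the 42 differences, 24 were above 0 and 18 below as deposited, and 6 were above 0 and 36 below after rescaling, so for 18 genes the sign of the difference depends on the scale. For 1 gene in 2 against 2 libraries, an exact permutation test cannot give a two-sided p below 0.333, so each call rests on the spread that limma shares across genes.

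**Figure D2:**
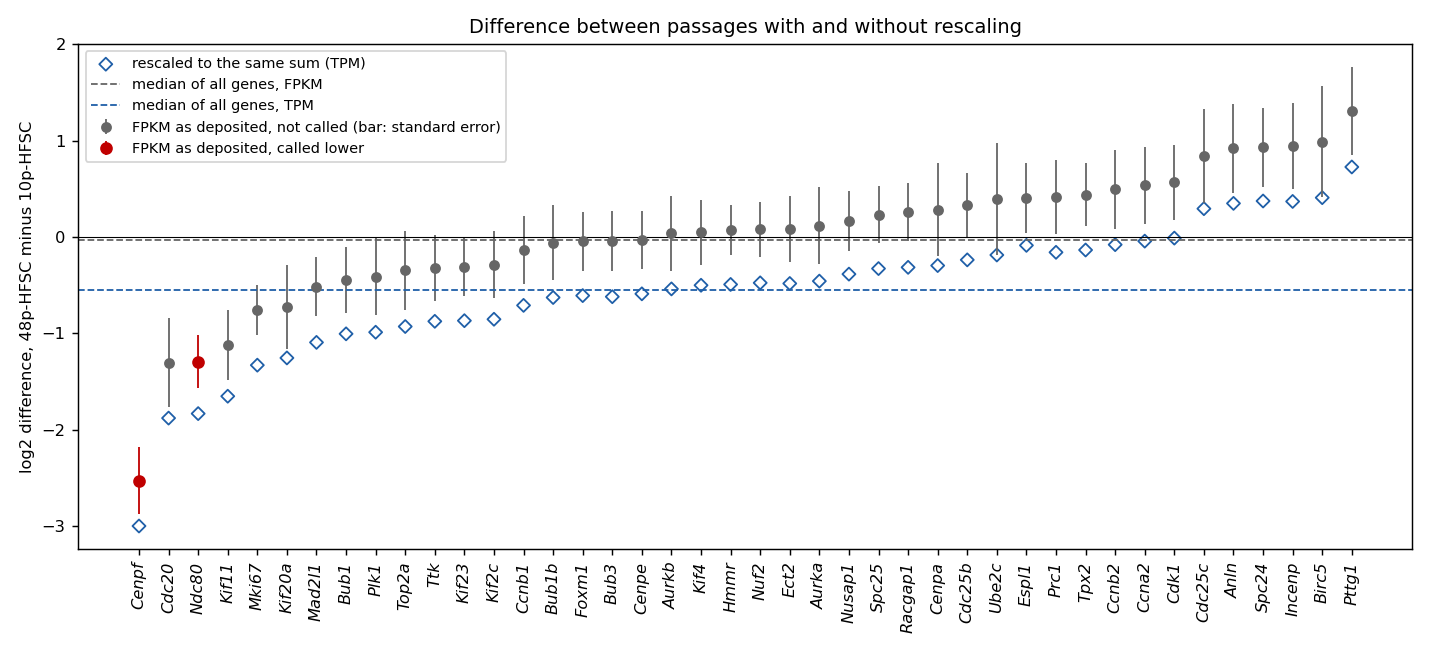
Difference between passages (48p-HFSC minus 10p-HFSC, mean log2(FPKM + 1), with its standard error) for each of the 42 genes in order, as deposited (filled) and after rescaling to TPM (open diamonds). The 2 genes called lower as deposited are red, dashed lines give the median over all genes tested, -0.03 as deposited and -0.55 after rescaling, and the diamonds lie lower than the filled points by about the distance between these lines.

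Of the 7 kinetochore genes, 2 were called lower, and the median difference was 0.08. Cenpf (chr1:189640606-189688086 in GRCm38, minus strand) encodes a large protein that joins the outer kinetochore in G2 and M phase. It was at 17.5 and 9.96 FPKM in the 10-passage libraries and 1.28 and 1.67 FPKM in the 48-passage ones. Both 48p-HFSC libraries lay far below both 10p-HFSC libraries, and the ratio of the group means was 9.30. The log2 difference was -2.53 (standard error 0.35, limma adjusted p = 0.00635), and -3.00 after rescaling to TPM (limma adjusted p = 0.0119). Without replicate 2 of 48p-HFSCs it was -2.64 (limma adjusted p = 0.0384), and without replicate 1 or 2 of 10p-HFSCs the call was lost (limma adjusted p = 0.0991 and 0.0684). Ndc80 (chr17:71496100-71526857, minus strand) encodes the subunit that gives the microtubule-binding Ndc80 complex its name. Its level was 29.6 and 22.3 FPKM at 10 passages, against 10.7 and 9.17 FPKM at 48, again without overlap. On the log2 scale it differed by -1.29 (standard error 0.27, limma adjusted p = 0.0257). The call was lost after rescaling (-1.83, limma adjusted p = 0.0660) and without any one of the libraries except replicate 1 of 48p-HFSCs, with limma adjusted p = 0.367 and 0.222 without replicates 1 and 2 of 10p-HFSCs and 0.0691 without replicate 2 of 48p-HFSCs.

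The partners of Ndc80 in its complex, which is built from Ndc80, Nuf2, Spc24 and Spc25 in equal parts, were not called. Spc24 had both 48p-HFSC libraries above both 10p-HFSC libraries. Nuf2 had 1 of the 48p-HFSC libraries below and 1 above both 10p-HFSC libraries, and in Spc25 the groups overlapped. Cenpa, the histone H3 variant that marks the centromere, was at 66.6 and 80.1 FPKM after 10 passages and at 54.6 and 145.3 FPKM after 48. Its 48p-HFSC libraries lay on either side of the 10p-HFSC libraries. Cenpe, a kinetochore motor protein, overlapped between the groups.

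None of the 4 genes of the anaphase-promoting complex and of separase was called, but they held the gene with the largest difference upward and the gene with the second largest downward. Pttg1 (chr11:43420250-43426251, minus strand), whose product securin keeps separase inactive until anaphase, was at 107.4 and 115.8 FPKM in the 10-passage libraries and 184.0 and 420.4 FPKM in the 48-passage ones. The groups did not overlap, also after rescaling. Its log2 difference was 1.31 (standard error 0.46, limma adjusted p = 0.0957), and 0.73 after rescaling (limma adjusted p = 0.132). Without replicate 1 of 48p-HFSCs the gene was called higher (1.91, limma adjusted p = 0.0131), and without replicate 2 it was not (0.72, limma adjusted p = 0.0989). Cdc20 (chr4:118432901-118437352, minus strand), the activator of the complex and the target that the spindle checkpoint holds back, was at 45.8 and 42.3 FPKM at 10 passages, against 10.4 and 28.1 FPKM at 48. Both 48p-HFSC values were below both 10p-HFSC values, and replicate 1 was the lower of them by far. The group means differed by -1.30 (standard error 0.46, limma adjusted p = 0.0992), not called, whereas after rescaling the difference was -1.88 and called lower (limma adjusted p = 0.0176). Without replicate 2 of 48p-HFSCs Cdc20 was called lower as deposited (-1.98, limma adjusted p = 0.0132). Cdc20 is given in full because of these calls, a choice made after its values were seen. Ube2c was at 175.6 and 180.6 FPKM after 10 passages and at 130.7 and 422.2 FPKM after 48, 1 library below and 1 above the 10p-HFSC pair.

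All 5 spindle checkpoint genes had a difference below 0 as deposited, and none was called. Their median was -0.32, and -0.87 after rescaling, but relative to the 10p-HFSC mean it was -0.67 in replicate 1 and 0.04 in replicate 2 at 48 passages. The sign turned for Bub1b and Bub3 with the correction for length and GC content, and for Bub1b, Bub3 and Ttk without replicate 1 of 48p-HFSCs. Mad2l1, which encodes the checkpoint protein that binds Cdc20, had the largest difference of them. It was at 74.1 and 75.6 FPKM in the 10-passage libraries and 41.7 and 65.0 FPKM in the 48-passage ones, without overlap. The log2 difference was -0.52 (standard error 0.31, limma adjusted p = 0.267), and -1.09 after rescaling (limma adjusted p = 0.0757). It was -0.83 without replicate 2 of 48p-HFSCs, -0.20 without replicate 1 and -0.18 with the length and GC correction, none of them called. The annotation holds a processed pseudogene of Mad2l1 that matches it at 95.4% over 454 bp, so reads could be shared between the copies. Bub3, which carries the checkpoint kinases to the kinetochore, was at 91.8 and 81.7 FPKM at 10 passages, against 68.2 and 104.1 FPKM at 48. For Bub1, Bub1b and Ttk, the checkpoint kinases and their relative, the groups overlapped.

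The 6 genes of mitotic entry, the cyclin genes Ccna2, Ccnb1 and Ccnb2, Cdk1 and the phosphatase genes Cdc25b and Cdc25c, had a median difference of 0.52 as deposited and -0.06 after rescaling, with none called. Each of the 6 was higher in replicate 2 than in replicate 1 of 48p-HFSCs, and 4 of them by at least 2-fold. Cdc25c had the largest difference, with 8.12 and 8.39 FPKM after 10 passages and 9.11 and 26.2 FPKM after 48. Replicate 1 of 48p-HFSCs was close to the 10p-HFSC libraries and replicate 2 well above them. On the log2 scale it differed by 0.84 (standard error 0.49, limma adjusted p = 0.257), and by 0.30 after rescaling (limma adjusted p = 0.786). Without replicate 1 of 48p-HFSCs it was called higher (1.56, limma adjusted p = 0.0186), and without replicate 2 it was not (0.13, limma adjusted p = 0.707). Ccnb1, which encodes cyclin B1, was at 81.6 and 71.7 FPKM in the 10-passage libraries and 52.0 and 93.7 FPKM in the 48-passage ones, on either side of the 10p-HFSC pair. It has 3 processed pseudogenes of 97.4% to 99.2% identity, so its level is uncertain.

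The 5 genes of mitotic kinases and of the chromosomal passenger complex, which corrects faulty attachments and acts again in cytokinesis, had a median difference of 0.12. Birc5 encodes survivin, the subunit that brings the complex to the centromere. It was at 93.7 and 113.3 FPKM at 10 passages, against 113.3 and 374.2 FPKM at 48, so only replicate 2 of 48p-HFSCs stood out. Its log2 difference was 0.99 (standard error 0.58, limma adjusted p = 0.261), and 0.41 after rescaling (limma adjusted p = 0.434). Birc5 was called higher without replicate 1 of 48p-HFSCs (1.85, limma adjusted p = 0.0168) and not without replicate 2 (0.13, limma adjusted p = 0.699). Incenp, the scaffold of the same complex, was at 46.9 and 37.5 FPKM after 10 passages and at 53.0 and 126.0 FPKM after 48, without overlap and not called. The kinase genes Aurka and Aurkb had 1 of the 48p-HFSC libraries below and 1 above both 10p-HFSC libraries, and Plk1 overlapped.

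The 5 spindle genes had a median difference of 0.08, as did the 7 genes of the central spindle and cytokinesis, and none of these genes was called. Kif11 (chr19:37376403-37421859, plus strand) encodes the motor that pushes the spindle poles apart. Its level was 28.7 and 19.1 FPKM in the 10-passage libraries and 13.4 and 7.76 FPKM in the 48-passage ones, with no overlap. The group means differed by -1.12 (standard error 0.36, limma adjusted p = 0.0791), and by -1.65 after rescaling (limma adjusted p = 0.125). Kif11 was called lower without replicate 1 of 48p-HFSCs (-1.48, limma adjusted p = 0.0438) and not without replicate 2 (-0.76, limma adjusted p = 0.198). Among the genes of cytokinesis the largest difference was that of Anln, which encodes anillin, a scaffold of the contractile ring. Anln was at 34.2 and 17.7 FPKM at 10 passages, against 33.1 and 68.3 FPKM at 48, so the groups overlapped. The log2 difference was 0.92 (standard error 0.46, limma adjusted p = 0.204), and 0.35 after rescaling (limma adjusted p = 0.658). It was 1.43 without replicate 1 and 0.41 without replicate 2 of 48p-HFSCs, not called in either case. In none of the 7 cytokinesis genes did the groups separate, whereas over all genes tested both 48p-HFSC libraries were above both 10p-HFSC libraries in 31.7% and below in 34.3%.

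Of the 3 remaining genes, Mki67, which encodes the proliferation marker Ki-67, a coat of mitotic chromosomes, was at 71.6 and 57.7 FPKM after 10 passages and at 35.8 and 39.6 FPKM after 48. The groups did not overlap, and both pairs were narrow. On the log2 scale it differed by -0.76 (standard error 0.26, limma adjusted p = 0.0922), and by -1.33 after rescaling (limma adjusted p = 0.0622). With the length and GC correction the difference was -0.31 (limma adjusted p = 0.418), and it was -0.83 without replicate 2 and -0.69 without replicate 1 of 48p-HFSCs, none of them called. Top2a, the topoisomerase that untangles sister chromatids, was at 164.2 and 106.1 FPKM in the 10-passage libraries and 76.3 and 140.6 FPKM in the 48-passage ones, with overlap. Foxm1, a transcription factor of mitotic genes, had its 48p-HFSC libraries on either side of the 10p-HFSC libraries.

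The 48p-HFSC libraries differed from each other in most of these genes, in one direction. On the log2(FPKM + 1) scale, replicate 2 minus replicate 1 had a median of 0.74 over the 42 genes, beside 0.01 over all genes tested. Replicate 2 was higher in 37 of the 42 genes, the exceptions being Ndc80, Kif11, Hmmr, Kif20a and Kif23. The 2 libraries were at least 2-fold apart in 14 of the 42 genes (33.3%), against 17.0% of all genes. Birc5, Ube2c, Cdc25c, Cenpa and Cdc20 were the furthest apart, each higher in replicate 2. In 10p-HFSCs the same difference had a median of -0.27, with replicate 2 higher in 11 of 42 genes, and only Kif20a was at least 2-fold apart.

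Relative to the 10p-HFSC mean, the median of the 42 genes was -0.28 in the first and 0.41 in the other 48p-HFSC library, while over all genes it was -0.05 in the first and close to 0 in the other. Without replicate 1 of 48p-HFSCs, 9 of the 42 genes were called higher and 3 lower, where 17.6% and 17% of all genes were. Without replicate 2, 0 were called higher and 2, Cenpf and Cdc20, lower, where 9.78% and 6.96% of all genes were. As a share of the summed FPKM, the 42 genes made up 0.340% and 0.241% at 10 passages, against 0.232% and 0.227% at 48. On this scale both 48p-HFSC libraries were below both 10p-HFSC libraries, by little against replicate 2 of 10p-HFSCs.

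**Figure D3:**
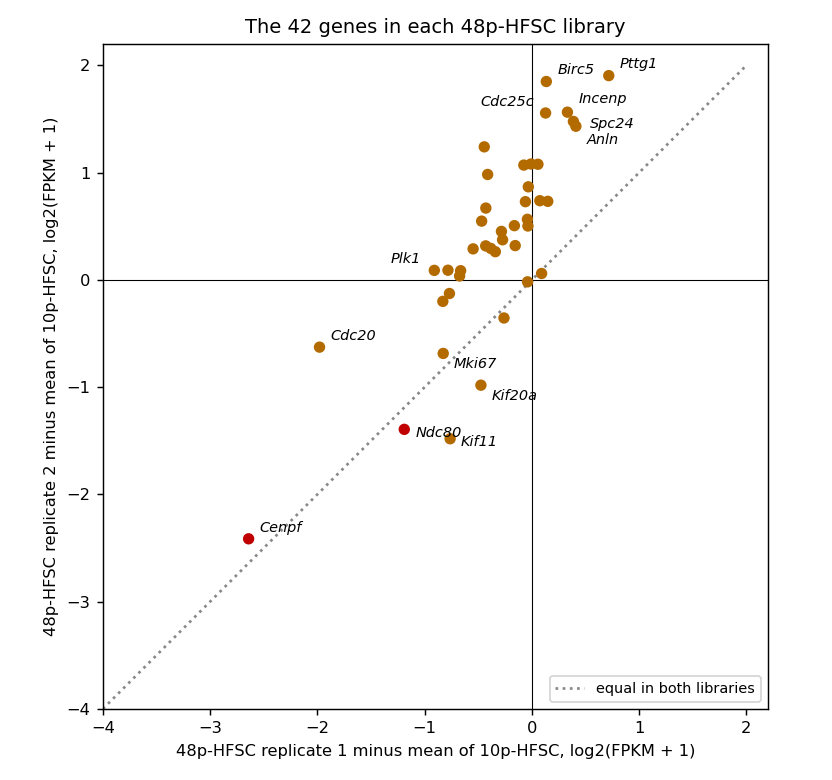
Difference from the 10p-HFSC mean, on the log2(FPKM + 1) scale, of replicate 1 (horizontal) and replicate 2 (vertical) of 48p-HFSCs, with 1 point for each of the 42 genes and the 2 called lower in red. All but 5 genes lie above the dotted line of equal differences, and Cenpf and Ndc80 lie near it, far below 0 on both axes.

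The differences between replicates went with transcript length. Across the 42 genes, Pearson's r of replicate 2 minus replicate 1 with log2 transcript length was -0.53 in 10p-HFSCs and -0.47 in 48p-HFSCs, and over the 10961 tested genes with a length it was -0.50 and -0.38. For the difference between the passages, r was -0.38 over the 42 genes and -0.24 over all. These are descriptions across genes of the same libraries, and genes are not independent replicates. Cenpf has the longest transcript of the 42 at 11130 bases, followed by Mki67 at 10061 bases, while that of Ndc80 has 2201 bases. With each library corrected for length and GC content, 3 of the 42 genes were called lower, Cenpf, Ndc80 and Cdc20, and 0 higher, where 9.95% of all genes were called lower and 11.9% higher.

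In 18 of the 42 genes the groups overlapped, and in a further 13 (31.0%) 1 of the 48p-HFSC libraries was below and 1 above both 10p-HFSC libraries. Over all genes tested, this last order was found in 12.9%. After rescaling it was found in 0 of the 42 genes and in 16.9% of all. Both 48p-HFSC libraries were above both 10p-HFSC libraries in 5 genes (Cdk1, Cdc25c, Incenp, Pttg1 and Spc24), against 31.7% of all genes, and below in 6 (Mad2l1, Cdc20, Cenpf, Ndc80, Kif11 and Mki67), against 34.3%. After rescaling to TPM, both were above in 3 of the 42 genes (Birc5, Pttg1 and Spc24), against 15.7% of all genes, and below in 19 (45.2%), against 43.7%. Pttg1 and Spc24 were above and Mad2l1, Cdc20, Cenpf, Ndc80, Kif11 and Mki67 below on both scales.

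**Figure D4:**
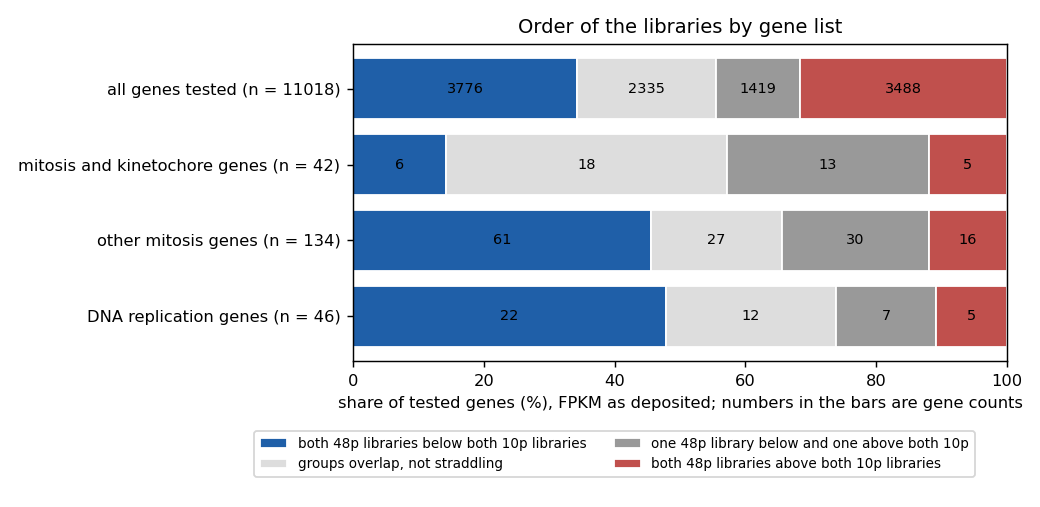
Share of genes (percent of those tested, FPKM as deposited) by the order of their 4 libraries, for all genes, the 42 mitosis and kinetochore genes, 134 other mitosis genes and 46 DNA replication genes, with gene counts in the bars. The 42 genes have the widest band of genes with 1 of the 48p-HFSC libraries below and 1 above both 10p-HFSC libraries (13 genes), and the DNA replication genes the widest band with both below (22 genes).

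Set against the median of the 42 genes in each library, which takes out most of a common scale, the order of the genes among themselves could be compared. Cenpf stood at -1.10 and -1.44 from this median (log2) at 10 passages, and at -3.68 and -3.91 at 48. Its rank among the 42 genes, with 1 for the highest, went from 36 and 40 to 42 in both 48p-HFSC libraries. Cdc20 moved from ranks 19 and 16 to 38 and 26, Ndc80 from 27 and 25 to 36 and 38, and Kif11 from 28 and 30 to 33 and 39. In the other direction, Pttg1, with the largest difference upward, moved from ranks 3 and 2 to 1 and 2, Incenp from ranks 17 and 18 to 7 and 6, and Spc24 from 40 and 36 to 28 and 22. On this scale the groups did not overlap in 24 of the 42 genes, with both 48p-HFSC libraries above in 13 and below in 11, against 28.2% and 26.7% of all genes tested. No test was made of it.

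The other mitosis genes were a list of 135 genes of mitotic entry kinases and their partners, condensin, cohesin, the inner and outer kinetochore, the anaphase-promoting complex, the spindle, the centrosome and cytokinesis, with the transcription factors of mitotic genes, of which 134 were tested. Of these, 10 were called lower (7.46%) and 1 higher (0.746%), both below the 9.15% and 10.8% of all genes, and the median difference was -0.26 as deposited and -0.78 after rescaling. The largest decrease was that of Tfdp1, the dimerization partner of E2F factors, from 135.7 and 123.7 FPKM to 28.7 and 13.2 FPKM (-2.67, limma adjusted p = 0.00814). Lin9, a subunit of the complex that activates mitotic genes, and Nfyc, a subunit of the factor that binds CCAAT, were also called lower. So were the cohesin subunit gene Stag1, the cohesin protector Sgo1 (listed as Sgol1), the condensin gene Smc2, the Cenpa loading gene Mis18a, the kinetochore gene Ska2, Anapc4 of the anaphase-promoting complex and the spindle motor gene Kif15. The gene called higher was listed as Stra13, the older symbol of the inner kinetochore gene Cenpx, which RefSeq also gives as a synonym of Bhlhe40 and Laptm5, both listed under their own symbols. It was at 7.44 and 13.7 FPKM at 10 passages, against 51.6 and 133.1 FPKM at 48 (2.92, limma adjusted p = 0.0147). Relative to the 10p-HFSC mean, the median of these 134 genes was -0.50 in replicate 1 and -0.18 in replicate 2 at 48 passages. Over all genes it was -0.05 and close to 0.

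Genes of DNA replication, which act one phase earlier in the cell cycle, are the closest comparison. Of 46 such genes, all tested, 13 were called lower (28.3%) and 0 higher, beside 9.15% and 10.8% of all genes. After rescaling, 7 of the 46 were called lower, beside 7.44% of all genes. The median difference was -0.40 as deposited and -0.96 after rescaling. The median level of these genes was 26.1 and 23.6 FPKM after 10 passages and 15.6 and 18.9 FPKM after 48, without overlap, unlike the median of the 42 mitosis genes. The median of the other mitosis genes did not overlap either, at 17.9 and 14.7 FPKM against 11.6 and 13.8 FPKM. Nor did that of all tested genes, at 12.17 and 11.74 FPKM against 11.66 and 11.20 FPKM, a much smaller step. Those called lower included Mcm2, Mcm4, Mcm5 and Mcm7 of the replicative helicase, and Pcna, the sliding clamp, at 223.6 and 172.4 FPKM in the 10-passage libraries and 95.7 and 77.0 FPKM in the 48-passage ones. The difference between the lists was not tested. Without either one of the 10p-HFSC libraries, 0 genes of both lists and 0 of the 42 genes were called lower, and over all genes only 140 or 146 were.

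The promoters of the 42 genes were searched for the letters TTTGAA, the core of the cell cycle genes homology region, an element through which the DREAM and MuvB complexes are known to restrict many genes to G2 and M phase. RefSeq promoter sequences (GRCm38.p6), from 250 bases before to 50 after the start of transcription, were at hand for 34 of the 42 genes. TTTGAA, on either strand, was found in 25 of the 34 (73.5%), against 14% of the 8457 tested genes with a promoter and 20.2% of all 27025 genes with one. Between 50 bases before the start and the end of the window it was found in 23 (67.6%), against 3.76% of the tested genes. The share with TTTGAA in the whole window was 39.1% of 115 other mitosis genes and 13.5% of 37 DNA replication genes. Its variants TTCGAA and TTTAAA were found in 4 (11.8%) and 9 (26.5%) of the 34, against 2.49% and 10.9% of tested genes and 1.8% and 14.9% of all. Among the other mitosis genes these shares were 7.83% and 16.5%, and among the DNA replication genes 5.41% and 10.8%. The letters CCAAT, bound by the factor NF-Y, can overlap TTTGAA only at the ends. They were found on either strand in 26 of the 34 promoters (76.5%), against 43.9% of tested genes and 41.1% of all. The share with CCAAT was also above that of tested genes in the 115 other mitosis genes (55.7%) and the 37 DNA replication genes (62.2%).

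**Figure D5:**
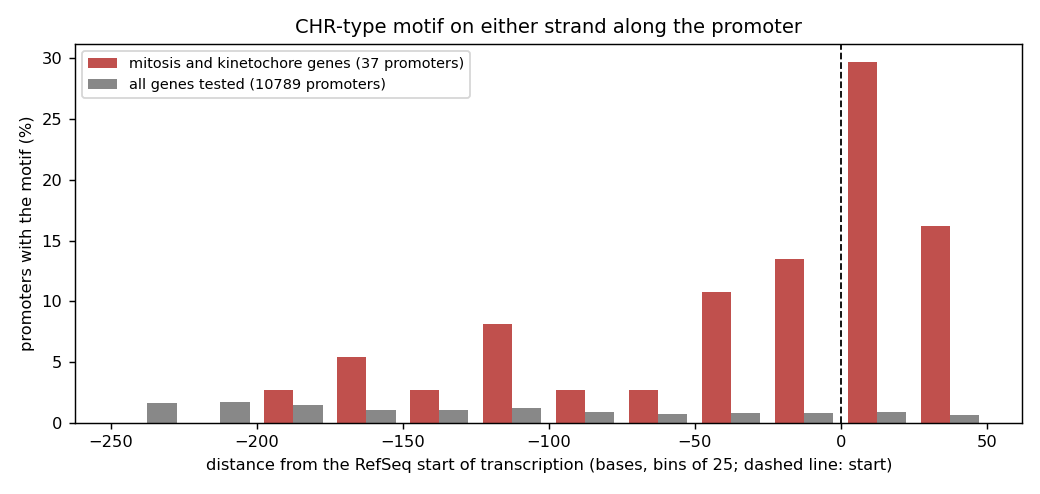
Share of promoters (percent) with TTTGAA on either strand in each bin of 25 bases, by distance from the start of transcription (dashed line), for the 37 promoters of the 34 genes (red) and the 10789 promoters of all tested genes (grey). The red bars are tallest in the first bin after the start, at 29.7%, where the grey bar is 0.908%.

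Stretches of 30 bases around TTTGAA (capitals, or TTCAAA where it lies on the other strand) are shown for the 4 genes with the largest differences downward, of which Cenpf and Ndc80 were called, and for 4 genes with smaller differences. All are read 5′ to 3′ on the strand of the gene.
Cenpf: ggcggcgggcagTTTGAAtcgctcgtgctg
Ndc80: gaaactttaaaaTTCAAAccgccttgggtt
Cdc20: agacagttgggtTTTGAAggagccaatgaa
Kif11: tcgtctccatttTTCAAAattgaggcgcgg
Cdk1: taccgcggcgagTTTGAAactgctggcact
Ccnb2: agcggcgcggtaTTTGAAtcgcggaccggg
Plk1: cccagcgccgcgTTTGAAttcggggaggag
Cenpa: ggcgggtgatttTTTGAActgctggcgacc
They lie at chr1:189688067-189688096 (Cenpf), chr17:71526811-71526840 (Ndc80), chr4:118437344-118437373 (Cdc20), chr19:37376351-37376380 (Kif11), chr10:69352910-69352939 (Cdk1), chr9:70421533-70421562 (Ccnb2), chr7:122159453-122159482 (Plk1) and chr5:30666890-30666919 (Cenpa). The matches in Cenpf and Ndc80 lie after the RefSeq start and those in Cdc20 and Kif11 before it, and those of the other 4 genes also lie on both sides. Grouped by these letters, the 25 genes with TTTGAA had a median difference of 0.05 (from -2.53 to 0.92), with 2 called lower, and the 9 without it had a median of 0.08 (from -0.52 to 1.31), with 0 called. Pttg1 is among the 9.

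The 250 bases before the start are shown for the 2 genes called lower, with CCAAT in capitals. The first holds it 2 times and the second not at all, on either strand.
Cenpf: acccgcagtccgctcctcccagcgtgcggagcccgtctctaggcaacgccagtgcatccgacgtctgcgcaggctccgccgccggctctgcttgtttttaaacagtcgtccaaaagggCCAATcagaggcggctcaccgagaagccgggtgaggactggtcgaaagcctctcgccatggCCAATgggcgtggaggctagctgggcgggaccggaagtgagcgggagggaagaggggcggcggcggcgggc
Ndc80: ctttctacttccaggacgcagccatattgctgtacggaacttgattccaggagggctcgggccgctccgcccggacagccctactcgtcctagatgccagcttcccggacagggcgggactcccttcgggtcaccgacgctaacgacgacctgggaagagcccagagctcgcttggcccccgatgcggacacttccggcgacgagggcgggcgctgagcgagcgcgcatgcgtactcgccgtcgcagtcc
They lie at chr1:189688087-189688336 and chr17:71526858-71527107, both on the minus strand. A match of these letters is a description of the sequence and not a bound site.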

How the data were processed

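Polyadenylated RNA was sequenced by the authors in 4 libraries, and the authors deposited for each library 1 FPKM value per gene symbol. The submitters' processing notes name TopHat2 2.1.1, Bowtie2 2.2.8, SAMtools 0.1.18, Cuffdiff 2.2.1 and the genome mm10, while the paper names Cufflinks for the FPKM values and other versions of Bowtie2 and SAMtools. Libraries were made with a stranded kit. The annotation, the strand setting used in counting and the handling of reads with several positions were not given in the sources used here. FPKM values carry no read totals, so no counting interval or floor is given, and no count model was used. 0 columns were left out.

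Values were taken to log2(FPKM + 1), and the 11018 genes that reached 1 FPKM in 2 or more libraries were tested. For the fits labelled TPM, each library was first rescaled to the mean of the library sums, which is not the sum of TPM proper. Groups, taken from the labelled passage number, were compared with limma 3.58.1 (R 4.3.3), using a trended variance prior and Benjamini-Hochberg adjustment over all tested genes. A call needed an adjusted p-value below 0.05 together with a log2 difference of 1 or more, a scale on which the change of a low gene is understated. Positions and lengths came from GENCODE M21 (GRCm38), similar transcripts were found with minimap2 2.31, and other steps used Python 3.11. Relative depth was read from the commonest ratio of low FPKM values between libraries, and is its inverse. It equals depth only if FPKM was scaled to the mapped total, which is uncertain.

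The 42 genes, the lists of other mitosis genes, DNA replication genes and markers, and the tests were chosen with earlier results of these data known. Given in full were the genes called and the gene with the largest difference in each role. The 8 genes of highest mean FPKM were given by library, and genes of the other mitosis and replication lists were named only if called. Reads of Ccnb1, Mad2l1, Mki67 and Racgap1 could be shared with near copies, and exons of Ccna2, Kif20a, Kif4, Prc1, Cdc20, Ube2c and some others overlap those of a gene on the opposite strand, which is uncertain because the counting is not stated to have used strand. Exons of Foxm1 and Top2a overlap those of a gene on the same strand, by up to 144 and 122 bp. Cenpf, Ndc80, Kif11 and Pttg1 had none of these. Alternatives were a pseudocount of 0.1, no filter, a filter on the mean FPKM, TPM, median-of-ratios and quantile scaling, an untrended variance prior, calls without the fold limit or with a limit of 0.1 on the adjusted p-value, a correction for length and GC content (natural splines with 4 degrees of freedom), the replicate number as a block, and leaving out each library. TPM with the block was added after the values had been seen.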

Additional observations from a re-analysis of the deposited data

How the results depend on the processing

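Among the 42 genes, 0 called higher and 2 lower became 1 and 4 at an adjusted p-value under 0.1 (Pttg1, and Cenpf, Ndc80, Cdc20 and Kif11), 0 genes were called lower without the filter on low values, and leaving out 1 library at a time gave 0 to 9 higher and 0 to 3 lower. With 1 library of a group left out, the lone library is assumed to vary like the others. At an adjusted p-value under 0.1, 1453 of all 11018 genes tested were called higher and 1303 lower. The median difference of the 42 genes went from 0.08 to -0.49 under TPM, and the sign changed in 18 of them, in 4 under quantile scaling and in 7 with the correction for length and GC content. Over all genes, 116 were called higher and 114 lower without the filter, 620 higher under TPM, and 35 to 1936 higher and 140 to 1875 lower with 1 library left out. Of the other mitosis genes, 0 were called higher and 0 lower without the filter, 17 lower at an adjusted p-value under 0.1, 0 higher with the length and GC correction, and 0 to 10 higher and 0 to 14 lower with 1 library left out. Of the DNA replication genes, 1 was called lower without the filter, 7 under TPM, and 0 to 4 higher and 0 to 12 lower with 1 library left out. Apart from what follows from fewer libraries or another filter, the cause was not tested.

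The labels do not say whether same-numbered libraries share more than a number, and in the 2 pairs the deviations from the group means correlated at 0.408 across genes. With a replicate block in the fit, 1613 of all genes (14.6%) came out higher and 1497 (13.6%) lower. Of the 42 genes, 1 was called higher (Pttg1, limma adjusted p = 0.0150) and 4 lower (Cenpf, Ndc80, Cdc20 and Kif11). Of the other mitosis genes, 3 were called higher and 19 lower with the block, and of the DNA replication genes, 1 higher and 15 lower. The block with the length and GC correction gave 3 of the 42 genes higher and 3 lower. It gave 1 other mitosis gene higher and 18 lower, and 2 DNA replication genes higher and 11 lower. Over all genes, that fit called 13.9% higher and 12.2% lower. The block with TPM, chosen after seeing the data, gave 2236 genes (20.3%) lower over all, 6 of the 42 genes lower, with Mad2l1 and Mki67 beside the 4 above, and the median of -0.49. The depth is unknown, and the steps between low values were coarsest in replicate 2 of 48p-HFSCs, which limits low values most there.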
